A study of Arabidopsis thaliana with 24 samples.

Results

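The 5 class III homeodomain-leucine zipper (HD-ZIP III) genes of Arabidopsis thaliana are PHABULOSA (PHB, AT2G34710), PHAVOLUTA (PHV, AT1G30490), REVOLUTA (REV, AT5G60690), CORONA (CNA, also HB15, AT1G52150) and HB8 (AT4G32880). Their rows were taken from the count table by locus identifier and not by a measured value, while the family itself was picked for description with earlier results of these data known. They are 5 of the 34218 features in the table, and all 5 passed the filter on low counts that left 21315 genes for testing. Transcript levels came from pools of roots, cut at 1 cm, from 50 to 100 seedlings aged 5 days. All seedlings were F1 plants from crosses of a UAS::abi1-1 line, in which an upstream activating sequence can drive abi1-1, a dominant form of the phosphatase ABI1 that blocks abscisic acid (ABA) signalling in the cells that make it. The other parent was C24 (the cross the submitters use as wild type, with no driver, so that abi1-1 is silent), or the enhancer trap lines J0571, J1721 or Q0990, which switch abi1-1 on in their own set of cells. Each cross was held for 8 h on plates with 1 µM ABA or on mock plates, which gives 8 groups of 3 libraries. The labels do not name the cells in which a driver is active, all 8 groups carry the transgene, and nothing says whether a group's pools were grown apart: the p-values reflect how much these pools differ, which may be technical.

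HD-ZIP III factors are transcription factors that pattern the root vascular cylinder (the stele) and, in the shoot, the upper side of leaves. In the Arabidopsis root, the GRAS factors SHORT-ROOT (SHR) and SCARECROW (SCR) switch on the microRNAs miR165 and miR166 in the endodermis. These small RNAs move into the stele and lower HD-ZIP III transcripts at its edge, and a high HD-ZIP III level in the centre favours metaxylem while a low level favours protoxylem. ABA signalling in the endodermis has been reported to act on xylem through miR165, which makes the response of these 5 transcripts to ABA, with and without abi1-1, a question that the crosses address.

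The microRNAs and their target sites are shown because all 5 transcripts carry such a site. All sequences and coordinates are from RefSeq on the TAIR10.1 build, written 5′ to 3′. In the mature microRNAs the capitals mark the seed, bases 2 to 8.
miR165: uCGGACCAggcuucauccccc
miR166: uCGGACCAggcuucauucccc
The first is made by 2 genes, MIR165A and MIR165B, and the second by 7, MIR166A to MIR166G. They have the same seed and differ by C17U, counted from the 5′ end.

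In the target sites below, read from each transcript, the capitals mark the bases that differ from the perfect complement of the nearest microRNA, which is miR165 for PHB, PHV, REV and HB8 and miR166 for CNA.
PHB: TTgggatgaagcctggtccgG
PHV: TTgggatgaagcctggtccgG
REV: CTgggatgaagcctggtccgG
HB8: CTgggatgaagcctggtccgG
CNA: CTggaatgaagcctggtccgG
Each site of 21 bases has 3 mismatches to its nearest microRNA and 4 to the other. Counted from the 5′ end of the site, with the base of the perfect complement first, they are G1T, G2T and A21G in PHB and PHV and G1C, G2T and A21G in REV, HB8 and CNA. The bases opposite the seed are matched in all 5. PHB and PHV have the same site, REV and HB8 have the same site, and CNA differs from REV at 1 base, so that 20 of 21 bases are identical.

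All 5 sites lie in coding sequence and span an exon junction, with 11 bases in the first of the joined exons. The junction is between exons 4 and 5 in PHB, PHV, REV and CNA and between exons 5 and 6 in HB8. With the intron included, the sites are at chr2:14642530-14642666 on the minus strand for PHB, chr1:10799330-10799445 on the minus strand for PHV, chr5:24398787-24398898 on the plus strand for REV, chr1:19412976-19413085 on the minus strand for CNA and chr4:15866872-15866974 on the minus strand for HB8. A scan of the transcripts of 27558 coding genes found a site with at most 3 mismatches to miR165 or miR166 in exactly 5 genes, and these were the 5 HD-ZIP III genes. With 4 mismatches allowed there were 12 genes, and with 5 allowed there were 73. A match describes the letters and is no measurement of cleavage.

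The microRNAs themselves were not measured by these libraries. MIR165A, MIR165B and MIR166A to MIR166G had 0 counts in all 24 libraries. The same held for all 325 of the 325 microRNA genes in the table. A count of 0 leaves room for up to 3 counts, which is 0.0487 to 0.0778 CPM (counts scaled to a common library size) depending on the library. The sources used here do not say whether microRNA genes were counted at all, and if they were left out that limit does not hold, so no statement on miR165 or miR166 can be drawn from the counts.

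Libraries held 38542817 to 61555387 counts, and the 5 genes had 920 to 4221 counts each per library. ABA separated the libraries on the first principal component, which held 64.9% of the variance of log2(CPM + 0.5), and on the second, which held 5.47%, mock library 1 of each cross lay away from the other 2. These libraries lay at 29.0 in C24 and 20.5 in Q0990 but at -22.1 in J0571 and -13.2 in J1721, so they may also touch comparisons between crosses. Counts of the 5 genes called were checked without them, while overlaps between replicates are given only with them. Root markers were present in all groups. The summed level of 4 endodermis markers was 194 to 252 CPM and that of 4 stele markers 181 to 240 CPM. The sum was 12.5 to 50.4 CPM for the 3 tested of 4 photosynthesis genes used as shoot markers. ABI1, which counts the endogenous gene and cannot be parted from abi1-1 here, rose with ABA in all 4 crosses, with log2 changes of 1.74 in C24, 1.41 in J0571, 1.79 in J1721 and 1.83 in Q0990.

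All 5 HD-ZIP III genes were transcribed at moderate levels in every library, and no gene was absent from any cross or treatment. Levels per exon length let the genes be compared with each other. On that scale, in CPM per kb of exons over all 24 libraries, CNA stood at 19.4 ± 1.12 (SD, n = 24), PHB at 18.6 ± 1.21, REV at 17.5 ± 1.28, HB8 at 14.8 ± 1.69 and PHV at 7.91 ± 0.50. HB8 was the fourth and PHV the lowest of the family in all 24 libraries. The order of the upper 3 varied: 16 libraries had CNA above PHB above REV, 4 had CNA above REV above PHB, 2 had PHB on top and 2 had REV on top. The means of CNA and PHB, and those of PHB and REV, lay less than 1 SD apart, and those of CNA and REV lay farther apart than that. Exon lengths were 3146 bases for PHB, 3079 for PHV, 3544 for REV, 3621 for CNA and 3161 for HB8.

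**Figure D1:**
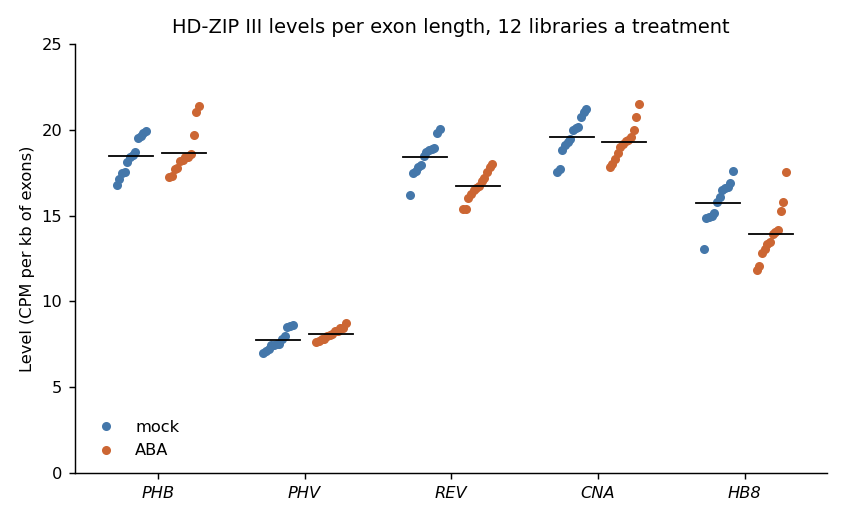
Level of each HD-ZIP III gene in CPM per kb of exons (y axis, from 0) in 12 mock and 12 ABA libraries; points are libraries, sorted by value within a treatment, and black lines are means. PHV lies lowest at a mean of 7.91 over all 24 libraries, and the ABA means of REV (16.7) and HB8 (13.9) lie under their mock means (18.4 and 15.8).

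As shares of the summed level of the 5 genes per kb, the make-up of the family differed little between groups but shifted with ABA. In every cross the mean shares of HB8 and REV were lower with ABA and those of PHB, PHV and CNA higher. In C24, HB8 went from 19.8 to 17.6%, REV from 22.0 to 21.4% and CNA from 24.8 to 25.3%. Shares of 1 sum are tied to each other, and these shifts were not tested. PHV made up 8.84 to 11.2% of the sum over the 24 libraries, HB8 15.6 to 21.3%, REV 20.3 to 24.4%, PHB 22.0 to 27.8% and CNA 23.2 to 26.6%. The sum itself ran from 71.9 to 85.9 CPM per kb. In C24 it was 82.6 ± 3.07 in mock and 77.6 ± 3.28 in ABA libraries (SD, n = 3), in J0571 81.6 ± 2.53 and 73.9 ± 2.20, in J1721 78.8 ± 5.59 and 76.2 ± 4.17, and in Q0990 76.7 ± 0.98 and 79.0 ± 5.55. The mean was thus lower with ABA in C24, J0571 and J1721 and higher in Q0990, and these sums were not tested.

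Within a gene, the 8 groups were close together. The highest group mean was 1.11 times the lowest for PHB, 1.14 times for PHV, 1.18 times for REV, 1.13 times for CNA and 1.29 times for HB8. When the 8 groups of a gene were put in order of their means, neighbours overlapped in 7 of 7 pairs for PHB, PHV, REV and HB8. For CNA they overlapped in 6 of 7 pairs, the exception being Q0990 mock below J0571 mock. For REV the 4 ABA groups filled the lowest 4 places and the 4 mock groups the highest 4. No other gene of the family was ordered by treatment in that way, and for HB8 the J1721 mock group fell below the Q0990 ABA group. Neither the overlap of neighbours nor the order by treatment was counted over all genes. The order therefore sets REV apart within the family only, and how common it is among other genes was not tested.

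**Figure D2:**
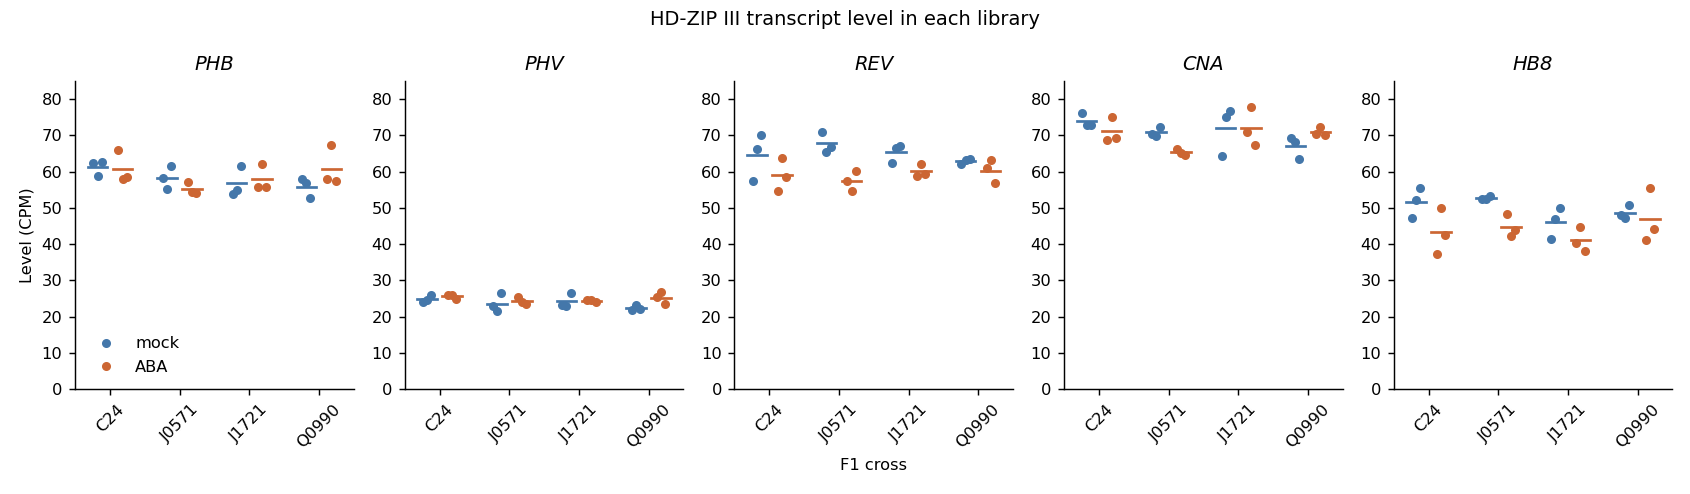
Level of each HD-ZIP III gene in CPM (y axis, from 0) in each of the 24 libraries, by F1 cross (x axis) and treatment; points are libraries and lines are means of 3. Replicates of mock and ABA overlap for most genes and crosses, and REV in J0571 is parted, with 65.5 to 71.0 CPM in mock and 54.6 to 60.3 CPM in ABA libraries.

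ABA lowered REV and HB8 slightly and left no called change in PHB, PHV or CNA. Averaged over the 4 crosses, 2 of the 5 genes were called at an adjusted p under 0.05, both lower, in a comparison that called 55.2% of all 21315 genes, 27.6% of them as lower. REV, which acts in vascular and leaf patterning, fell by 0.14 on the log2 scale (SE 0.04, adjusted p = 0.0018 in edgeR's quasi-likelihood test), a fold of 0.908 with a 95% interval of 0.863 to 0.956. HB8, an auxin-induced gene of the procambium, fell by 0.18 (SE 0.05, adjusted p = 0.0056), a fold of 0.884 with an interval of 0.820 to 0.952. Both were lower with ABA in 4 of 4 crosses. That count comes from the same libraries as the average, and it was not made over all genes. REV kept its sign in all alternatives of each cross. HB8 in Q0990, at -0.05, changed sign in 1 of 13 alternatives, reaching 0.03 with a single library left out. Such changes were not large among all genes: 40.5% of genes had a smaller average change in absolute terms than REV and 48.6% a smaller one than HB8.

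The other members gave averages near 0. PHV, a close paralogue of PHB, was higher with ABA in 4 of 4 crosses, by 0.07 on average (SE 0.04, adjusted p = 0.137). That difference did not pass the test, though it did without J0571 mock library 3, at 0.09 with an adjusted p of 0.0389. Under other processing the average of PHV stayed positive but was as low as 0.01. The sign for PHV changed in 1 of 13 alternatives in C24, 1 of 13 in J0571, 4 of 13 in J1721 and 0 of 13 in Q0990. PHB gave 0.02 (SE 0.04, adjusted p = 0.743) and CNA, which acts with PHB and PHV in meristems, gave -0.02 (SE 0.03, adjusted p = 0.574). PHB and CNA were each lower in 2 of 4 crosses. The 95% intervals of the 5 averages, each for a single gene, together spanned folds of 0.820 to 1.11. A common change of the family was not estimated. In these whole-root pools fewer cells of a type and less RNA per cell cannot be told apart.

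**Figure D3:**
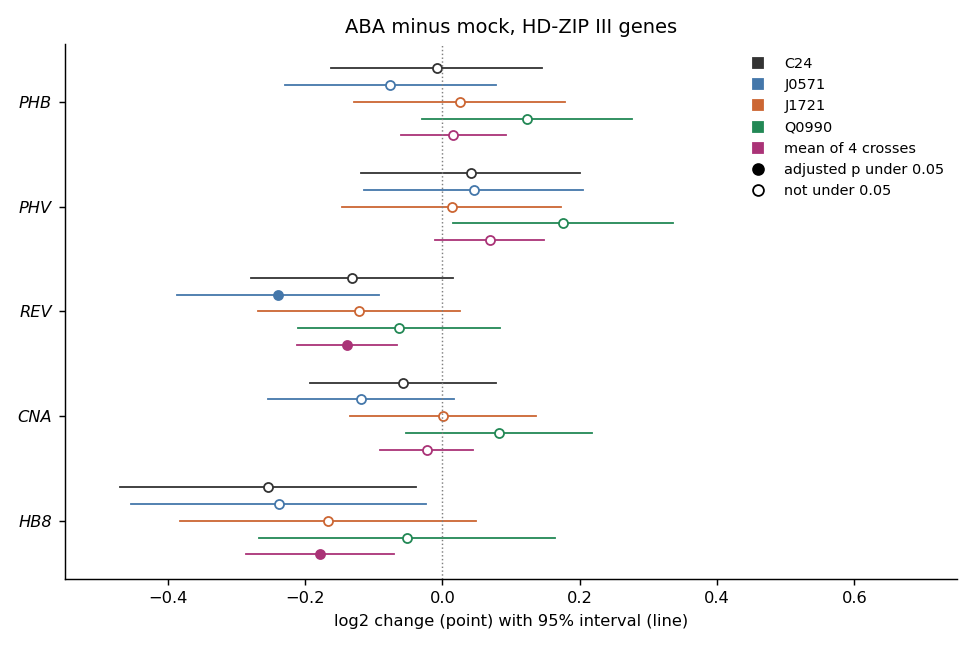
log2 change with ABA (x axis, ABA minus mock) of each HD-ZIP III gene in each cross and averaged over the 4 crosses; points are estimates, lines 95% intervals, filled points have an adjusted p under 0.05. REV in J0571 (-0.24) and the averages of REV (-0.14) and HB8 (-0.18) are filled.

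In C24, where abi1-1 has no driver, none of the 5 genes was called, while 34% of all genes were; at an unadjusted p under 0.05 there was 1, HB8, and DESeq2 called none. HB8 was at 47.3, 52.1 and 55.6 CPM in the mock libraries and at 37.3, 50.0 and 42.6 CPM in the ABA libraries. ABA library 2 lay among the mock values, so the groups overlapped. The change was -0.25 (SE 0.10, adjusted p = 0.0628), and it passed the threshold without that library, at -0.37 with an adjusted p of 0.0122, and without C24 mock library 1, at -0.31 with an adjusted p of 0.0364.

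REV in C24 was at 57.3, 66.4 and 70.1 CPM in mock and at 54.5, 63.9 and 58.5 CPM in ABA libraries. Mock library 1 lay low, within the ABA range. The change was -0.13 (SE 0.07, adjusted p = 0.162), and without C24 mock library 1 it was -0.21 with an adjusted p of 0.0235. PHB moved little in C24, with 61.2 ± 2.13 CPM in mock and 60.9 ± 4.55 CPM in ABA libraries (SD, n = 3). PHV had 24.9 ± 1.09 and 25.6 ± 0.63 CPM, and CNA 74.0 ± 1.95 and 71.1 ± 3.50 CPM. Their log2 changes of -0.01, 0.04 and -0.06 had adjusted p of 0.947, 0.728 and 0.538. No gene of the family had mock and ABA replicates without overlap in C24, where 43.1% of all genes did.

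In J0571, REV was called and was lower, 1 of 5 genes, against 24.3% of all genes called and 9.87% called as lower. REV was at 71.0, 65.5 and 66.9 CPM in the mock libraries and at 57.5, 54.6 and 60.3 CPM in the ABA libraries. Every ABA library lay below every mock library. The change was -0.24 (SE 0.07, adjusted p = 0.0143), a fold of 0.847 with a 95% interval of 0.765 to 0.938. Without J0571 mock library 1, which had the highest value, it was -0.23 with an adjusted p of 0.0502.

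HB8 in J0571 was at 52.6, 52.6 and 53.4 CPM in mock and at 48.3, 42.2 and 43.9 CPM in ABA libraries, again with no overlap. Its change of -0.24 (SE 0.10) was as large as that of REV and did not pass the test, with an adjusted p of 0.103. CNA was at 70.4, 69.9 and 72.5 CPM in mock and at 66.2, 65.2 and 64.6 CPM in ABA libraries, and its change was -0.12 (SE 0.07, adjusted p = 0.212). With REV, this made 3 of 5 genes whose ABA replicates lay wholly below mock, where 16.2% of all genes did so and 37.4% were without overlap in either direction. PHB, at 58.3 ± 3.18 and 55.3 ± 1.65 CPM, and PHV, at 23.6 ± 2.55 and 24.4 ± 0.98 CPM, overlapped between treatments, with changes of -0.08 and 0.05 and adjusted p of 0.525 and 0.740.

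In J1721 none of the 5 genes was called at an adjusted p under 0.05 and none at an unadjusted p under 0.05, where edgeR called 28.6% of all genes after adjustment; DESeq2 called none of the 5 either. REV was at 62.4, 66.6 and 67.1 CPM in mock and at 58.8, 62.2 and 59.4 CPM in ABA libraries, narrowly without overlap, as was the case for 41.7% of all genes. Its change was -0.12 (SE 0.07, adjusted p = 0.224). HB8 was at 41.3, 47.1 and 49.9 CPM in mock and at 40.5, 44.7 and 38.1 CPM in ABA libraries, which overlapped, with a change of -0.17 (SE 0.10, adjusted p = 0.260). PHB had 56.8 ± 4.26 and 57.8 ± 3.61 CPM, PHV 24.2 ± 2.07 and 24.4 ± 0.31 CPM, and CNA 72.0 ± 6.79 and 72.1 ± 5.26 CPM in mock and ABA libraries. Their changes of 0.03, 0.01 and 0.00 were well within the spread between replicates.

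In Q0990 none of the 5 genes was called, against 31.2% of all genes; 1, PHV, had an unadjusted p under 0.05, and DESeq2 called none. PHV was at 21.9, 23.1 and 22.2 CPM in mock and at 25.4, 26.9 and 23.6 CPM in ABA libraries. All ABA libraries lay above all mock libraries, the change was 0.18 (SE 0.08), and the adjusted p was 0.0903. CNA was also without overlap, at 69.2, 68.2 and 63.5 CPM in mock and 70.4, 72.3 and 70.1 CPM in ABA libraries, with a change of 0.08 (SE 0.07, adjusted p = 0.371). These 2 of 5 genes compare with 44.3% of all genes without overlap in either direction.

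PHB in Q0990 was at 57.9, 57.0 and 52.7 CPM in mock and at 58.0, 67.3 and 57.3 CPM in ABA libraries, with overlap and a change of 0.12 (SE 0.07, adjusted p = 0.226). REV was at 62.0, 63.3 and 63.6 CPM in mock and at 60.9, 63.1 and 56.8 CPM in ABA libraries, and its change of -0.06 (SE 0.07) was the smallest of the 4 crosses for this gene. HB8 was at 48.0, 47.1 and 50.9 CPM in mock and at 41.2, 55.4 and 44.3 CPM in ABA libraries. ABA library 2 gave the highest value of HB8 in this cross, the groups overlapped, and the change was -0.05 (SE 0.10, adjusted p = 0.754).

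Across the single crosses, the 5 genes had a median absolute log2 change of 0.06 in C24, 0.12 in J0571, 0.03 in J1721 and 0.08 in Q0990. Over all genes tested it was 0.23, 0.18, 0.20 and 0.22. The 95% intervals of the 5 genes in the 4 crosses reached from a fold of 0.722 (HB8 in C24) to a fold of 1.26 (PHV in Q0990).

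No difference in ABA response between a driver cross and C24 was called for an HD-ZIP III gene. For J0571, 0 of 5 genes were called, and edgeR called 0.403% of all genes. For J1721 it was again 0 of 5, against 0.169% of all genes, and for Q0990 0 of 5, against 0% of all genes (954 at an unadjusted p under 0.05, and 2 called by DESeq2). A joint test over the 4 crosses called 0 of 5 and 0.549% of all genes. None of the 5 had an unadjusted p under 0.05 in any of these 4 tests, and DESeq2 called none of them.

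The intervals of the differences were as follows. REV responded by 0.11 more to the negative in J0571 than in C24 (SE 0.10, 95% interval of the fold 0.804 to 1.07, adjusted p = 0.873), so REV was called in J0571 and not in C24 without a called difference between these crosses. In Q0990 all 5 interaction values were positive, from 0.07 for REV to 0.20 for HB8 (SE 0.15, adjusted p = 0.943). They share the C24 libraries and are not independent. The interval for HB8 in Q0990 reached a fold of 1.42, and that of REV ran from 0.908 to 1.21.

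Without ABA, the driver crosses also had HD-ZIP III levels close to those of C24. Of the 5 genes, 0 were called in J0571, 0 in J1721 and 0 in Q0990, where 0.474%, 0.0422% and 0.0469% of all genes were called by edgeR; DESeq2 called none of the 5 in these comparisons. At an unadjusted p under 0.05 there was 1, CNA in Q0990. CNA in mock libraries was at 76.3, 72.9 and 72.8 CPM in C24 and at 69.2, 68.2 and 63.5 CPM in Q0990, a difference of -0.14 (SE 0.07, adjusted p = 0.906).

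PHB and PHV in mock libraries were also lower in every Q0990 than in every C24 library. PHB was at 62.3, 58.8 and 62.6 CPM in C24 against 57.9, 57.0 and 52.7 CPM in Q0990, and PHV at 24.04, 24.5 and 26.1 CPM against 21.9, 23.1 and 22.2 CPM. The differences were -0.13 (SE 0.07) and -0.15 (SE 0.08), each with an adjusted p of 0.906. This made 3 of 5 genes wholly below C24, where 3.95% of all genes were, and 8.65% were without overlap in either direction. In J0571 mock libraries 1 of 5 genes, CNA, was without overlap, against 15.9% of all genes, and in J1721 0 of 5, against 10.7%.

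Under ABA, 0 of 5 genes differed from C24 in J0571, J1721 and Q0990, where 3.94%, 1.29% and 0.0751% of all genes were called by edgeR. None of the 5 had an unadjusted p under 0.05, and DESeq2 called none. PHB was at 66.1, 58.0 and 58.5 CPM in C24 ABA libraries and at 57.2, 54.5 and 54.2 CPM in J0571 ABA libraries, a difference of -0.14 (SE 0.07, adjusted p = 0.337). CNA was at 68.8, 75.1 and 69.4 CPM against 66.2, 65.2 and 64.6 CPM, a difference of -0.12 (SE 0.07, adjusted p = 0.334). These 2 of 5 genes were without overlap in J0571, against 22.1% of all genes. In J1721 it was 1 of 5, PHV, against 13.4%, and in Q0990 0 of 5, against 9.87%.

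**Figure D4:**
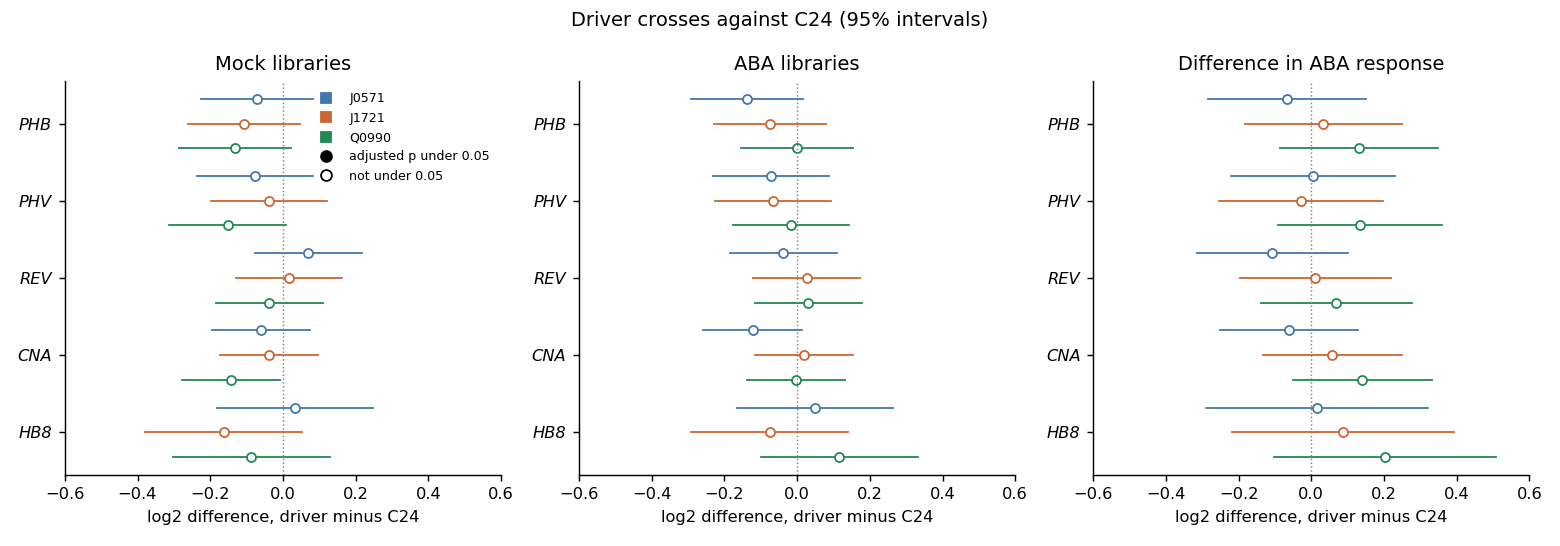
log2 differences of the driver crosses from C24 (x axis) for each HD-ZIP III gene in mock libraries, in ABA libraries and in the response to ABA; points are estimates, lines 95% intervals, and filled points would have an adjusted p under 0.05. No point is filled, and all estimates lie between -0.16 (HB8, J1721 mock) and 0.20 (HB8, Q0990 response).

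The 5 genes did not all vary together across the libraries of a treatment. Likeness was measured as Pearson's r over the 24 libraries of log2(CPM + 0.5), after the mean of each treatment had been taken from each gene, among 17560 genes with a mean log2 CPM of at least 1. It describes these libraries, which share depth, scaling and any difference between crosses. PHB and PHV were each other's most like gene, with r = 0.72 over 24 libraries, 0.78 over the 12 mock and 0.76 over the 12 ABA libraries. Both hold exon windows of 50 bases that occur in another gene, 15 of 3097 in PHB and 49 of 3030 in PHV. PHB was next most like CNA within the family (0.62) and least like REV (0.15). REV was most like HB8 within the family, at 0.59.

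Outside the family, the genes most like PHB were AT5G14210 (r = 0.70) and AT2G24250 (0.69). Those most like PHV were DRS1 (0.68) and CSLA02 (0.66), a glucomannan synthase gene. REV was most like ARABIDILLO-2 (0.78), the corepressor gene TPR3 (0.77) and MFP2 (0.77), which codes for an enzyme of fatty acid breakdown. CNA was most like TRP1 (0.82), TPR8 (0.81) and REV1 (0.79), a DNA polymerase gene that is not REV. HB8 was most like AT4G03250 (0.84), SCA3 (0.75) and emb1211 (0.75). With 24 libraries and 17560 genes searched, such values are the top of a long list.

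The little zipper genes ZPR1 to ZPR4 code for small proteins that bind HD-ZIP III factors and block them, and their transcription is raised by those factors in Arabidopsis. ZPR2 had too few counts to be tested. Of the other 3, 1 was called in C24 (higher), 1 in J0571 (higher), 1 in J1721 (higher) and 1 in Q0990 (lower), and the called gene was not the same in all. With so few genes, 1 of 3 is near the share of all genes called, which was 34%, 24.3%, 28.6% and 31.2% in C24, J0571, J1721 and Q0990.

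ZPR3 was at 0.75, 0.70 and 0.90 CPM in C24 mock and at 1.30, 1.25 and 1.86 CPM in C24 ABA libraries, and at 0.57, 0.53 and 0.33 CPM in J1721 mock and 1.36, 2.03 and 1.28 CPM in J1721 ABA libraries. The groups did not overlap in either cross. It rose by 0.90 in C24 (SE 0.31, adjusted p = 0.0267) and by 1.70 in J1721 (SE 0.32, adjusted p = 0.00023). ZPR3 is a low gene and its levels rest on few counts. ZPR4 rose by 0.33 in J0571 (SE 0.10, adjusted p = 0.0166), from 5.71, 6.06 and 5.73 CPM to 7.59, 7.07 and 7.27 CPM. ZPR1 fell by 0.55 in Q0990 (SE 0.17, adjusted p = 0.0128), from 6.51, 5.96 and 7.12 CPM to 4.73, 3.53 and 5.08 CPM. Under ABA, ZPR4 was lower in J1721 than in C24 by a log2 difference of -0.39 (SE 0.10, adjusted p = 0.0460). No difference in response to ABA between a driver cross and C24 was called for a little zipper gene.

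The argonaute genes AGO1, which loads miR165 and miR166 for silencing, and AGO10, which binds them and keeps them from AGO1, were not called in any of the 4 crosses. Their changes lay between -0.17 (AGO1 in J0571) and 0.06 (AGO10 in J1721). Of the 4 KANADI genes, whose products oppose HD-ZIP III factors in organ polarity, 1 was called in C24 and 0 in each other cross. Of all genes, 34% were called in C24, 24.3% in J0571, 28.6% in J1721 and 31.2% in Q0990. With so few genes, 1 of 4 is near the share in C24. The called gene was KAN4, which fell by 0.36 in C24 (SE 0.10, adjusted p = 0.0081).

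Among 5 regulators upstream of the family, 2 were called in C24, 1 in J0571, 1 in J1721 and 1 in Q0990. With so few genes, these counts are near the shares of all genes called, 34%, 24.3%, 28.6% and 31.2%. SHR, which is needed for miR165 and miR166 in the endodermis, fell by 0.19 in C24 (SE 0.06, adjusted p = 0.0112). MP, the auxin response factor that switches on HB8 in Arabidopsis, rose in all 4 crosses, by 0.67 in C24, 0.68 in J0571, 0.61 in J1721 and 0.80 in Q0990. HB8 was not called in any single cross. In C24, MP was at 26.4, 28.5 and 31.3 CPM in mock and at 41.4, 49.1 and 46.2 CPM in ABA libraries, where HB8 went from 47.3, 52.1 and 55.6 CPM to 37.3, 50.0 and 42.6 CPM. In ABA libraries MP was lower in J1721 than in C24, by a log2 difference of -0.53 (SE 0.12, adjusted p = 0.0264), with HB8 at -0.08 (SE 0.10) in the same comparison. SCR, TMO6 and HCA2 were not called in any single cross. Averaged over the 4 crosses, 3 of the 5 regulators were called, where 55.2% of all genes were. These were MP, which was higher, and SHR and SCR, which were lower, with -0.12 as the lowest value.

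Of 11 reported targets and vascular partners of HD-ZIP III factors, 6 were called in C24 (1 higher, 5 lower), 4 in J0571 (1 higher, 3 lower), 4 in J1721 (2 higher, 2 lower) and 3 in Q0990 (1 higher, 2 lower). Of all genes 34%, 24.3%, 28.6% and 31.2% were called in these crosses, so the counts in J0571, J1721 and Q0990 lay near the background. The list had a median log2 change of 0.04 in C24, -0.18 in J0571, 0.00 in J1721 and -0.05 in Q0990. The auxin synthesis genes TAA1 and YUC5, both bound by REV in Arabidopsis, moved in opposite directions. TAA1 rose in all 4 crosses, by 0.68, 0.46, 0.39 and 0.57 in C24, J0571, J1721 and Q0990. YUC5 fell by 1.48 in C24, 1.18 in J0571 and 1.04 in J1721, and was at -0.61 in Q0990 (SE 0.34, adjusted p = 0.18).

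IPT7, a cytokinin synthesis gene that PHB switches on in the Arabidopsis root, had the largest absolute change of the list in each of the 4 crosses. In C24 it was at 2.79, 3.71 and 4.23 CPM in mock and at 1.39, 0.69 and 1.10 CPM in ABA libraries. It fell by 1.75 in C24 (SE 0.34), 1.72 in J0571 (SE 0.33), 1.71 in J1721 (SE 0.33) and 1.64 in Q0990 (SE 0.34), with adjusted p of 0.00026 to 0.00057, while PHB was not called in any of them. The auxin influx carrier LAX3 fell by 0.30 in C24 and 0.22 in J0571, and LAX2 fell by 0.27 in C24. LAX2 was also higher in J0571 than in C24 under ABA, by 0.36 (SE 0.08, adjusted p = 0.0136). ACL5, which makes thermospermine in xylem precursors, fell by 0.24 in C24 and by 0.29 in Q0990, and the HD-ZIP II gene ATHB4 rose by 1.20 in J1721 (SE 0.37, adjusted p = 0.0159). ATHB4 is a low gene, with 13 to 106 counts per library. No difference in response to ABA between a driver cross and C24 was called for any of the 11 genes, so its rise is not shown to be particular to J1721. HAT2, HAT3, ATHB2 and AHP6 were not called in any cross.

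**Figure D5:**
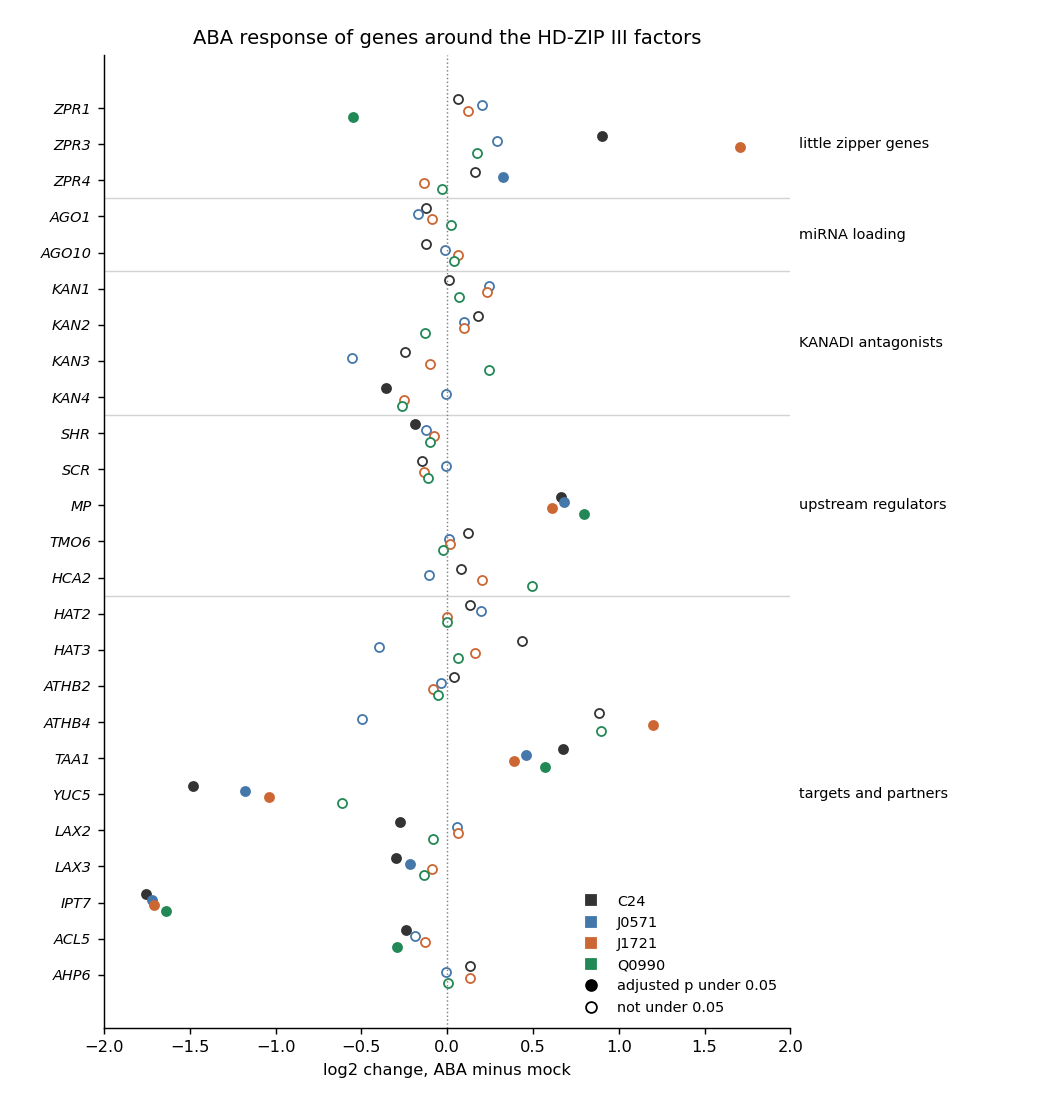
log2 change with ABA (x axis) of genes around the HD-ZIP III factors in each of the 4 crosses, grouped by role; filled points have an adjusted p under 0.05. MP and TAA1 are filled and positive, and IPT7 filled and negative, in all 4 crosses, with IPT7 between -1.75 and -1.64.

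Markers of the tissue in which the 5 genes are active moved with ABA too. The summed level of the 4 stele markers WOL, SHR, TMO5 and PXY was 198 to 240 CPM over the mock and 181 to 222 CPM over the ABA libraries. In J0571, where REV was called, it was 206 to 220 CPM in mock and 185 to 204 CPM in ABA libraries, and in C24 220 to 240 and 199 to 222 CPM. Averaged over the crosses all 4 markers were called, 3 lower and TMO5 higher, where 55.2% of all genes were called. The sum of 5 xylem vessel markers was 215 to 307 CPM in mock and 252 to 465 CPM in ABA libraries, and the crosses were not alike. In ABA libraries it was 252 to 292 CPM in J1721, against 414 to 465 in C24, 388 to 422 in J0571 and 372 to 463 in Q0990. In J1721 mock libraries it was 215 to 251 CPM. Under ABA, 4 of 5 vessel markers were called lower in J1721 than in C24, where 1.29% of all genes were called. The sum of the 3 tested shoot markers was 15.4 to 50.4 CPM in mock and 12.5 to 26.2 CPM in ABA libraries. Also on average, 5 of 5 xylem vessel markers (4 higher, 1 lower), 1 of 2 phloem markers (SUC2, higher), 3 of 4 endodermis markers (2 higher, 1 lower), both root hair markers (higher), 2 of 3 tested shoot markers (lower) and not the root cap marker SMB were called. None of the stele, xylem vessel or shoot markers was at 0 in all libraries. Their part in the lower REV and HB8 levels was not tested.

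Counts of REV may also hold reads of a neighbour. AT5G60700 lies on the opposite strand and shares 67 exon bases with REV, and the strand setting of the counting is not given in the sources used here. AT5G60700 was at 26.6 to 31.0 CPM in J0571 mock and 30.1 to 38.2 CPM in J0571 ABA libraries, a log2 change of 0.25 (SE 0.11, adjusted p = 0.0988), opposite in sign to REV. Averaged over the crosses it rose by 0.22 (SE 0.05, adjusted p = 0.0013). The other 4 genes overlap no annotated gene. Of all windows of 50 exon bases, 18 of 3495 in REV and 0 in CNA and HB8 occur in another gene.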

How the data were processed

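A single table deposited by the authors holds unnormalized read counts per gene for the 24 libraries. Per the labels' protocols, a NEBNext Ultra kit was used and read pairs of 150 bases were sequenced. HISAT2 and HTSeq appear in the submitters' processing notes. The strand setting, annotation, genome build and tool versions behind the counts have no statement in the sources used here. Sequences, exon lengths and names came from RefSeq TAIR10.1, which held 32548 of the 34218 features, and no coordinate comes from the deposited table.

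In R 4.3.3, edgeR 4.0.16 scaled the counts by TMM, filtered low genes with filterByExpr (21315 were left) and fitted 8 group means to all 24 libraries for quasi-likelihood tests. P-values were adjusted over these genes by the Benjamini-Hochberg method, and called means an adjusted p under 0.05. Standard errors and 95% intervals come from the same fit. CPM uses scaled library sizes. DESeq2 1.42.0 was an alternative, beside other scaling, no filter, only the compared groups, a replicate block and leaving out libraries. The fit was tested on simulated counts, in which the planted changes were larger than any seen in the 5 genes. The members and the gene lists were chosen with earlier results of these data known. The rule for names was: the 5 members, ABI1, microRNA and little zipper genes always, other genes of the lists around the family where called, and the 3 genes most like each member. PEAR1 and PEAR2 were dropped from the upstream regulators because the reference gives their loci other symbols. Cell type markers are given as summed levels and counts. Beside the 11 targets and partners, 1 further gene of that list is not reported here. Other genes were named to say that they were not called. Floors from counts cover counting error only, while the 95% intervals also take in the spread between libraries of a group.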

Additional observations from a re-analysis of the deposited data

Results flagged for a closer look

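In the response to ABA, CESA7, a cellulose synthase gene of vessel walls and a member of the xylem marker list, differed between crosses. It went from 37.9, 48.8 and 50.8 CPM in mock to 90.1, 117 and 95.6 CPM in ABA libraries in C24, and from 32.2, 38.5 and 37.2 CPM to 42.2, 45.7 and 39.6 CPM in J1721. The response in J1721 minus that in C24 was -0.90 on the log2 scale (SE 0.17, adjusted p = 0.0227 in edgeR's quasi-likelihood test), and the joint test over the 4 crosses gave F = 9.78 (adjusted p = 0.0454). In the same comparison of J1721 with C24 the 5 HD-ZIP III genes gave values between -0.03 and 0.09, none of them called.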

How the results depend on the processing

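Of 1162 alternative values for HD-ZIP III results that were not called, 1152 again missed the threshold, 86 of them with the sign changed, and 10 passed it. REV and HB8 averaged over the 4 crosses were called in all 30 of 30 alternatives, REV in J0571 in 12 of 13, HB8 in C24 in 5 of 13 and REV in C24 in 3 of 13. Where a call changed, the cause was not tested. The number of the 5 genes called in C24, 0 in the main analysis, was 2 without the 4 mock libraries numbered 1 (REV -0.21, HB8 -0.31), 2 with library totals and no scaling factors, an alternative chosen after seeing the data (REV -0.20, HB8 -0.32), and 0 to 2 when single libraries were left out. Library totals moved the median of all genes by less than 0.1 on the log2 scale. In J0571 it was 2 with only the compared groups (HB8 -0.25, adjusted p = 0.0327) and 0 to 1 with single libraries left out; for the average it was 2 to 3, and for every other comparison 0 throughout. Same-numbered mock and ABA libraries of a cross correlated between -0.14 and 0.18 in their deviations from the group means, above 0.1 in 7 of 12 pairs. Differently numbered mock and ABA libraries were not compared in this way, so these values do not decide on pairing. The numbers were not taken as pairs. The replicate block was a factor shared by all crosses and no pairing within a cross. With it the C24 count was 1 (HB8 -0.26, adjusted p = 0.0465) and no other count of the 5 genes changed.

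Counts over all genes moved as follows. DESeq2 called 194 genes for the response difference of J0571 (main 86), 67 for J1721 (36), 2 for Q0990 (0) and 278 in the joint test (117); for mock differences 280 in J0571 (101), 52 in J1721 (9) and 17 in Q0990 (10); and under ABA 415 in J1721 (276) and 27 in Q0990 (16). Without the 4 mock libraries numbered 1 the response differences gave 57 and 10 genes in J0571 and J1721, the joint test 55, and the mock differences 22 and 5. With only the compared groups there were 15 for the J1721 response and 39 for the J0571 mock difference, and with no filter 1 for the Q0990 response. Leaving out single libraries gave 57 to 90, 8 to 34 and 0 to 1 genes for the response differences of J0571, J1721 and Q0990, 65 to 126 in the joint test, 26 to 77, 5 to 9 and 6 to 17 for the mock differences, and 471 to 749, 177 to 276 and 11 to 19 under ABA. The responses themselves gave 6169 to 6938 genes in C24, 4238 to 5092 in J0571, 5091 to 5493 in J1721, 5576 to 5971 in Q0990 and 11394 to 11809 on average.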
